A study of Mus musculus with 10 samples.

Results

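The acute phase protein genes encode liver-secreted plasma proteins whose output changes in inflammation, infection and other stress. The 10 genes described here, Saa1, Saa2, Saa4, Orm1, Orm2, Lcn2, Hp, Hpx, Fgb and Hamp, were chosen by symbol on the array's annotation, with the brightest probe set standing for each gene. Of the 41345 probe sets on the array, 10 stood for these genes, and all 10 passed the filter on dim probe sets, among 13943 features tested. Dimmer probe sets of the same genes, if any, were not counted. Saa1 had no probe set of its own: the probe set annotated to both Saa1 and Saa2 is called the Saa1/Saa2 probe set below, and its value cannot be assigned to either gene. Saa2 also had its own probe set, and near-identical copies may share signal there too.

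Liver RNA came from 3-month-old female BALB/cByJ mice on an Affymetrix Mouse Gene 2.1 ST array. The groups were Pml knockout (KO) mice without food for 6 h (KO fasted, 3 arrays), Pml wild type (WT) mice without food for 6 h (WT fasted, 3 arrays), KO mice fed ad libitum (KO fed, 2 arrays) and WT mice fed ad libitum (WT fed, 2 arrays). The study asked how loss of Pml, whose protein builds PML nuclear bodies, alters the liver after a short fast. The sources used here do not give the deleted allele, the hour of collection or whether each array is a separate animal. The p values therefore measure only the variation among these arrays, which may be technical in part.

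In the acute phase response, interleukin-6 acts on hepatocytes through its receptor and the transcription factor STAT3, while interleukin-1 and tumour necrosis factor act through NF-kB. C/EBP transcription factors and glucocorticoids act together with both. Serum amyloid A proteins (Saa1, Saa2) are the classical inducible members in mouse, and Saa4 is the constitutive one. Orosomucoids (Orm1, Orm2) are carriers of small molecules in plasma, haptoglobin (Hp) binds free haemoglobin and hemopexin (Hpx) binds free haem. Lipocalin 2 (Lcn2) binds the siderophores with which bacteria take up iron, hepcidin (Hamp) is the hormone that degrades the iron exporter ferroportin, and Fgb is the beta chain of fibrinogen.

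The label of the arrays was checked first. Pml log2 intensity was 6.05, 6.35 and 6.14 in KO fasted and 7.72, 7.50 and 8.13 in WT fasted, and 6.91 and 6.41 in KO fed and 8.37 and 8.22 in WT fed, so knockout and wild type arrays did not overlap. All 12 hepatocyte markers lay above the array median on all 10 arrays. The clock genes split the KO fasted arrays: Arntl, the clock activator BMAL1, stood at 4.60, 4.53 and 8.87 in KO fasted replicates 1, 2 and 3, against 9.29, 9.04 and 9.16 in WT fasted, and at 5.72 and 6.02 in KO fed, against 7.50 and 7.10 in WT fed. Calls that rest on KO fasted arrays, and the values of the most variable members, are therefore also given without replicates 1 and 2. Below, a gene is "called" when its limma p value, adjusted by Benjamini-Hochberg over all 13943 features, is under 0.05. Values are log2 intensities, differences are on the log2 scale and carry their standard error (SE), and intervals are 95% intervals of the difference before any adjustment.

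Upstream sequences of 5 members are shown. Those of Saa1 and Saa2 show how alike these genes are, since they share a probe set. Those of Lcn2 and Orm2 stand for members with wide ranges and C/EBP letters, and that of Hamp for the member without them. RefSeq promoters (build GRCm38.p6) were found for 8 of the 10 symbols, all but Hp and Orm1, and the 250 bases before each annotated start were searched on both strands. Saa1 is chr7:46742981-46743230 on the minus strand, Saa2 is chr7:46751583-46751832 on the plus strand, Orm2 is chr4:63362199-63362448 on the plus strand, Lcn2 is chr2:32387740-32387989 on the minus strand and Hamp is chr7:30944030-30944279 on the minus strand. Sequences run 5′ to 3′ toward the gene, and capitals mark matches to any of the motifs TTGNGNAA (C/EBP), TTCNNNGAA (STAT), ACANNNTGT (glucocorticoid receptor) and GGCGCC (BMP-SMAD).
Saa1: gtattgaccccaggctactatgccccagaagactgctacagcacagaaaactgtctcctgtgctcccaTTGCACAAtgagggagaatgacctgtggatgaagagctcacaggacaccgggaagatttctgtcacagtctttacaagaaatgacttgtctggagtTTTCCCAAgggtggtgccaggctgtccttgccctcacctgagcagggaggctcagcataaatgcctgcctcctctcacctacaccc
Saa2: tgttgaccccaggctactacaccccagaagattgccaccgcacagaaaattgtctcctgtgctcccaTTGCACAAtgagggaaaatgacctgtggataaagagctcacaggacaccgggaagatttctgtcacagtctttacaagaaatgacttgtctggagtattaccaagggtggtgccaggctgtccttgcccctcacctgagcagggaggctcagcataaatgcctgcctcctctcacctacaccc
Orm2: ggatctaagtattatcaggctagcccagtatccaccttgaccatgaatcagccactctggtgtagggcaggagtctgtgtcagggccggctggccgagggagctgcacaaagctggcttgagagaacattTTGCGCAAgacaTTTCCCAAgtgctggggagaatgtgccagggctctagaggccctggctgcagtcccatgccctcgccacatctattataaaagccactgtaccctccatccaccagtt
Lcn2: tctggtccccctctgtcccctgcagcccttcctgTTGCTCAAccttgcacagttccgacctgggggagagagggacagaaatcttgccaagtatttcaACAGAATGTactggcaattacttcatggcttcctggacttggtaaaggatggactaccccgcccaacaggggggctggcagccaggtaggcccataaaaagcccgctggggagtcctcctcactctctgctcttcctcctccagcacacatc
Hamp: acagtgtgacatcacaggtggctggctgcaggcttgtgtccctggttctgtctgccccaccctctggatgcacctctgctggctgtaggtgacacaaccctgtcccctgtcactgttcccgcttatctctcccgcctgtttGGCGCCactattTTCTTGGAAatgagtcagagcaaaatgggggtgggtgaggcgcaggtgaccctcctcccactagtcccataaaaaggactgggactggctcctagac

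The Saa1 and Saa2 windows were identical at 238 of 249 aligned bases (95.6%), with 11 mismatches and 1 gap base. The C/EBP letters were present in 7 of the 8 member windows, Hamp being the exception, against 11.7% of the 32851 promoters searched. Saa1 and Saa2 share the match TTGCACAA through their common sequence, so these 7 are not independent. The Orm2 match TTGCGCAA is a palindrome and lies 120 to 113 bases before the start, with TTTCCCAA at 108 to 101. In Lcn2 the match TTGCTCAA lies at 216 to 209, with ACAGAATGT, a match to the glucocorticoid receptor letters, at 152 to 144. That motif was found in 2 of 8 member windows (Fgb is the other, with the same bases at 204 to 196) and in 5.84% of all promoters. STAT letters were present in 2 of 8 (Hamp, 97 to 89, and Fgb, 162 to 154) and in 7.02% of all. BMP-SMAD letters were present in 1 of 8 (Hamp, 109 to 104) and in 9.59% of all, and the NF-kB consensus in 0 of 8 and in 7.25% of all. None of these letters shows that a factor binds there.

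**Figure D1:**
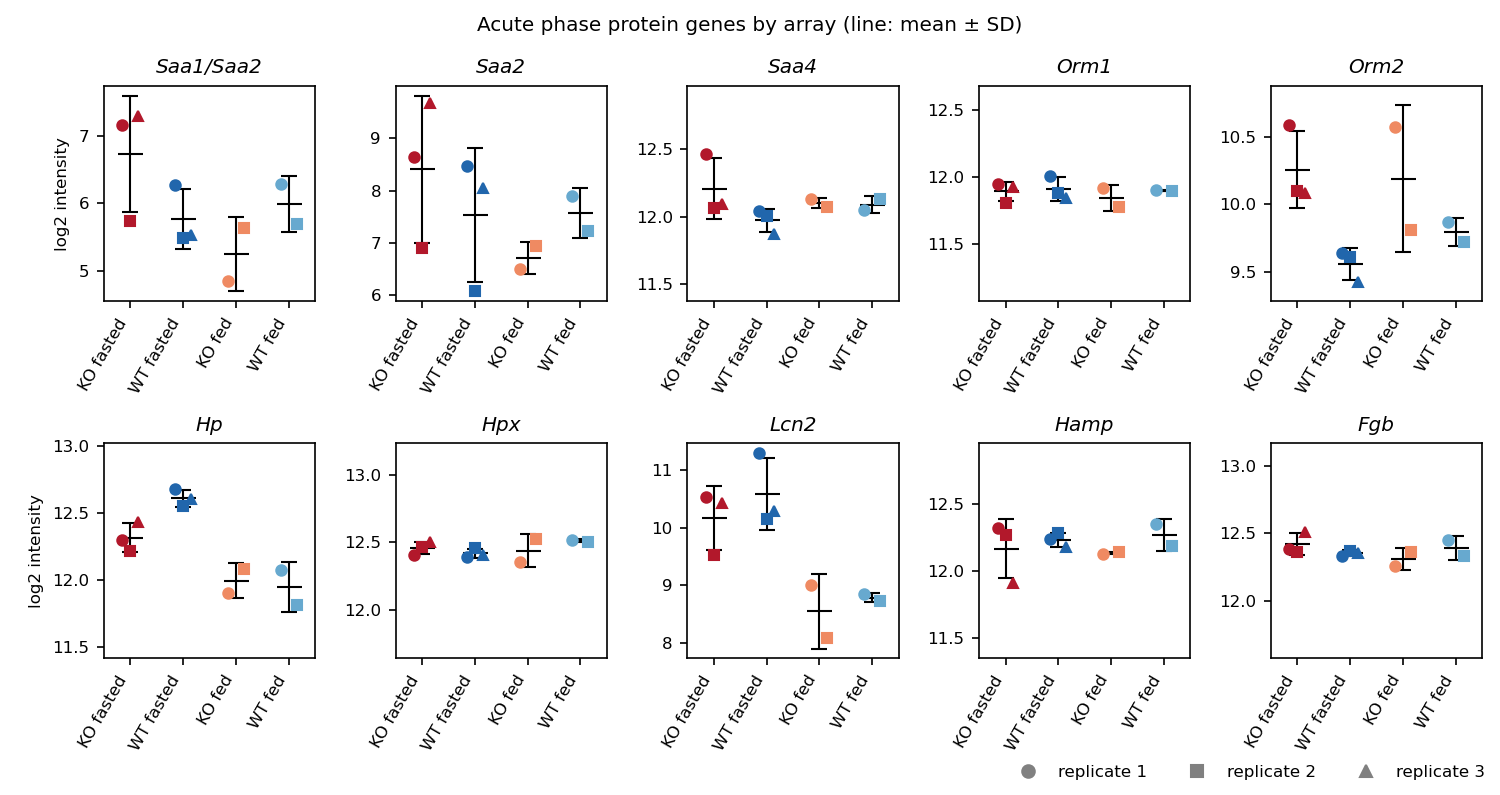
Log2 intensity of the 10 acute phase probe sets on each array, with the mean and SD of each group (n = 3 for KO fasted and WT fasted, n = 2 for KO fed and WT fed). Axes differ between panels. The fasted arrays of both genotypes lie above all fed arrays for Hp and Lcn2, while Orm1, Hpx and Fgb stay within 0.26 log2 units over all arrays.

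Before any comparison, the members fell apart by how much they varied. Hpx ranged over 0.17 log2 units across the 10 arrays, Orm1 over 0.23, Fgb over 0.26, Hamp over 0.44 and Saa4 over 0.60. On every array at most 0.556% of probe sets were brighter than any of these 5, and how far such bright probe sets follow a change in transcript was not tested. For Hp at most 0.515% of probe sets were brighter, and it ranged over 0.86. Orm2 ranged over 1.17, the Saa1/Saa2 probe set over 2.43, Lcn2 over 3.21 and Saa2 over 3.60. For Saa2 the pooled SD within groups (1.12) was as large as the SD over all 10 arrays (1.11), whereas for Hp it was 0.12 against 0.30.

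The first comparison asked what the fast did in wild type liver. Lcn2 and Hp rose, and the other 8 members were not called. Lcn2, the siderophore-binding protein, stood at 11.30, 10.15 and 10.29 in WT fasted replicates 1, 2 and 3, against 8.84 and 8.72 in WT fed. Every fasted array lay above both fed arrays by more than 1 log2 unit, and the difference was 1.80 (SE 0.41, interval 0.89 to 2.71), a 3.48-fold rise with an adjusted p of 0.0134. The call was lost without WT fed replicate 1 (difference 1.86, adjusted p = 0.0663) or replicate 2 (1.74, adjusted p = 0.0640), where a single fed array remained.

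Haptoglobin followed the same order with far less scatter. Hp was 12.68, 12.55 and 12.60 in WT fasted, against 12.08 and 11.82 in WT fed. The groups did not overlap, and the difference was 0.66 (SE 0.12, interval 0.39 to 0.93), a 1.58-fold rise with an adjusted p of 0.00534. It was called in all 19 alternative settings, with differences between 0.53 and 0.79.

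The count of 2 members called, both higher, compares with 21.4% of all features called and 8.23% called higher in this comparison. By separation alone, 5 of 10 members had groups that did not overlap, against 52.7% of all features, with 2 higher (23.0% of all features) and 3 lower (29.7%), so separation did not mark out the members. The median difference of the members was -0.04 and that of all features -0.02. The time of collection is not known, and clock genes also differed between these groups (Dbp, a clock output gene, at 6.07, 6.58 and 6.64 in WT fasted and 9.50 and 9.58 in WT fed), so fasting and clock state cannot be told apart.

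The inducible serum amyloid A genes showed no common direction in wild type. The Saa1/Saa2 probe set was 6.28, 5.49 and 5.54 in WT fasted and 6.29 and 5.70 in WT fed, and only 1 of the 3 fasted arrays lay above its array median. Saa2 was 8.48, 6.07 and 8.06 in WT fasted and 7.90 and 7.22 in WT fed. On the Saa1/Saa2 probe set no fasted array lay above both fed arrays, while for Saa2 the fasted arrays spread on both sides of the fed ones. The intervals were wide, -1.25 to 0.80 for Saa1/Saa2 and -1.85 to 1.79 for Saa2, so that the Saa2 interval includes a 2-fold change in either direction. Saa4, the constitutive form, differed by -0.12 (interval -0.42 to 0.18).

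Orm1 differed by 0.01 (interval -0.22 to 0.24) in fasted against fed wild type, Hpx by -0.10 (-0.31 to 0.12), Fgb by -0.04 (-0.26 to 0.18) and Hamp by -0.03 (-0.33 to 0.26). Orm2 was 9.64, 9.61 and 9.42 in WT fasted and 9.87 and 9.72 in WT fed, a difference of -0.24 (interval -0.74 to 0.27) that was not called although the arrays did not overlap. Hemopexin, which works beside haptoglobin in clearing haem, therefore gave no call in the comparison in which haptoglobin did. The difference between these 2 genes was not tested.

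Members of the same families outside the 10 were looked at after their values had been seen. Orm3, the third orosomucoid, was 9.62, 8.70 and 8.67 in WT fasted and 6.26 and 7.61 in WT fed, a rise of 2.06 (SE 0.57, adjusted p = 0.0304) that was lost in 6 of 19 alternatives. Without WT fed replicate 1, its lowest array, the difference was 1.39 (adjusted p = 0.231). The other fibrinogen chains were as flat as Fgb, with -0.06 for Fga and -0.04 for Fgg. Saa3, which macrophages and fat cells express, differed by 0.67 (adjusted p = 0.182).

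**Figure D2:**
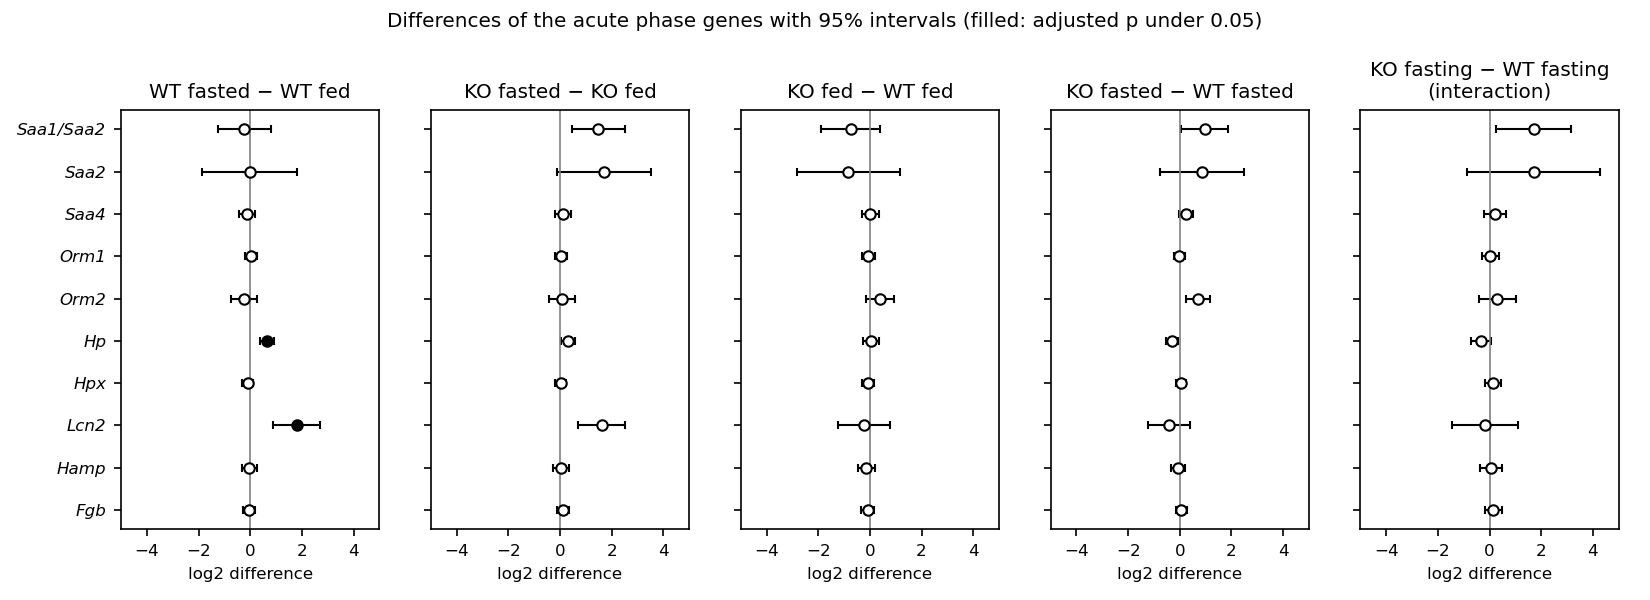
Log2 differences of the 10 acute phase probe sets with 95% intervals in the 5 comparisons, the group named first minus the second. Filled points mark the calls, Hp and Lcn2 in WT fasted against WT fed; the intervals of Saa2 are the widest of the 10 in every panel.

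In fasted against fed knockout liver Lcn2 and Hp again had higher means, but no member was called. Lcn2 was 10.54, 9.53 and 10.42 in KO fasted replicates 1, 2 and 3, against 8.998 and 8.09 in KO fed. The arrays did not overlap, and the difference of 1.62 (SE 0.41, interval 0.71 to 2.53) had an adjusted p of 0.0749. Hp was 12.30, 12.22 and 12.43 in KO fasted, against 11.91 and 12.09 in KO fed, again without overlap, with a difference of 0.32 (SE 0.12, interval 0.05 to 0.59, adjusted p = 0.195). With KO fasted replicates 1 and 2 left out, Lcn2 differed by 1.88 (adjusted p = 0.104) and Hp by 0.43 (adjusted p = 0.197), and 0 of 10 members and 165 features in all were called.

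The 2 serum amyloid A probe sets also had differences above 1 log2 unit in this comparison, with wide intervals. The Saa1/Saa2 probe set was 7.17, 5.74 and 7.29 in KO fasted and 4.86 and 5.64 in KO fed, a difference of 1.48 (SE 0.46, interval 0.45 to 2.51, adjusted p = 0.129). It was dim here: KO fed replicate 1 lay below its array median. KO fed replicate 2 and KO fasted replicate 2 lay just above theirs (percentiles 53.4 and 53.8). These dim values also enter its fed, fasted and interaction comparisons below. Saa2 was 8.65, 6.90 and 9.67 in KO fasted and 6.50 and 6.94 in KO fed, a difference of 1.68 (SE 0.81, interval -0.14 to 3.51, adjusted p = 0.296). From KO fasted replicate 3 alone these were 2.04 for Saa1/Saa2 (adjusted p = 0.0674) and 2.95 for Saa2 (adjusted p = 0.119). On both probe sets KO fasted replicates 1 and 3 stood above every fed knockout array while replicate 2 lay close to them. That division is not the one of the clock genes, where replicates 1 and 2 stand together against replicate 3.

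All 10 members had a positive difference in fasted against fed knockout, where 51.0% of all features did, and the members' median was 0.11 against 0.01 over all features. By limma 0 of 10 were called, 3 had an unadjusted p under 0.05 (Saa1/Saa2, Lcn2 and Hp), and 1.68% of all features were called. Groups did not overlap for these 3 members, all higher, against 36.8% of all features in either direction and 18.3% higher. Orm1 (0.05), Orm2 (0.07), Hpx (0.02), Hamp (0.03), Fgb (0.11) and Saa4 (0.11) differed by no more than 0.11. Without KO fasted replicates 1 and 2, Orm2 (-0.11), Hamp (-0.22) and Saa4 (-0.01) had a negative difference instead.

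Within groups, the same array was often the highest or the lowest across members. KO fasted replicate 2 had the lowest value of its group in 7 of 10 members and the highest in 0, where 31.0% and 33.5% of all features were lowest and highest on that array. WT fasted replicate 1 had the highest value of its group in 7 of 10 members, against 34.1% of all features. Several of these members share inducers and sequence, so they are not independent counts.

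Fed knockout and fed wild type livers gave 0 calls among the 10 members by limma, 0 with an unadjusted p under 0.05, and 0.0861% of all features were called. Saa1/Saa2, at 4.86 and 5.64 in KO fed and 6.29 and 5.70 in WT fed, differed by -0.75 (interval -1.87 to 0.38). Saa2 differed by -0.84 (-2.84 to 1.15) and Lcn2 by -0.24 (-1.24 to 0.76). Orm2 was 10.58 and 9.81 in KO fed and 9.87 and 9.72 in WT fed, a difference of 0.40 (-0.16 to 0.95) carried by KO fed replicate 1. Hp, called in wild type fasting, differed by 0.05 (-0.25 to 0.35). Groups did not overlap for 3 of 10 members (Saa1/Saa2, Saa2 and Hamp, all lower in KO fed), against 39.9% of all features in either direction and 23.7% lower. Hamp2, the second mouse hepcidin gene and not a member, was 8.70 and 9.58 in KO fed and 6.20 and 8.08 in WT fed (2.00, SE 0.63, adjusted p = 0.374), a spread that Hamp itself did not have.

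Fasted knockout was then set against fasted wild type liver, where Orm2 and Hp came closest to a call. Orm2 was 10.59, 10.10 and 10.08 in KO fasted and 9.64, 9.61 and 9.42 in WT fasted. Every knockout array lay above every wild type array, with a difference of 0.70 (SE 0.20, interval 0.25 to 1.15), or 1.63-fold. Its adjusted p of 0.0535 missed the threshold, and 7 of 19 alternatives called it, while it was 0.53 (adjusted p = 0.351) without KO fasted replicates 1 and 2. Orm1 differed by -0.02 (interval -0.23 to 0.19) in the same comparison.

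Hp lay lower in fasted knockout than in fasted wild type on every array, with the values given above, by -0.29 (SE 0.11, interval -0.54 to -0.05, adjusted p = 0.108). Saa1/Saa2 differed by 0.96 (SE 0.41, adjusted p = 0.158), Saa2 by 0.87 (SE 0.73, adjusted p = 0.470), Saa4 by 0.24 (SE 0.12, adjusted p = 0.232) and Lcn2 by -0.42 (SE 0.36, adjusted p = 0.492). Without KO fasted replicate 2, Saa1/Saa2 differed by 1.46 and passed the threshold (adjusted p = 0.0280), so this call turns on 1 array. The Saa2 difference ranged from 0.14 without WT fasted replicate 2 (adjusted p = 0.920) to 2.14 without KO fasted replicates 1 and 2 (adjusted p = 0.227), with 0.24 without KO fasted replicate 3 and 1.62 without KO fasted replicate 2. By limma 0 of 10 members were called, 3 had an unadjusted p under 0.05 and 11.1% of all features were called. Groups did not overlap for 3 members (Orm2 and Saa4 higher, Hp lower), against 33.0% of all features, 17.9% higher and 15.1% lower. Without KO fasted replicates 1 and 2, 0 of 10 members and 6 features in all were called, with Hp at -0.18 (adjusted p = 0.578), Lcn2 at -0.15 (adjusted p = 0.901) and Saa1/Saa2 at 1.52 (adjusted p = 0.131).

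Over the 4 comparisons between groups, the 5 flattest members (Saa4, Orm1, Hpx, Hamp and Fgb) had intervals that all lay between -0.46 and 0.51, that is between 0.726-fold and 1.42-fold. A change of 2-fold or more in either direction lay outside each of these intervals.

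Whether the fast acted differently in the 2 genotypes was tested by the interaction. By limma 0 of 10 members were called, 1 had an unadjusted p under 0.05, and 2.09% of all features were called. Saa1/Saa2 had an interaction of 1.71 (the knockout fasting difference minus the wild type one, SE 0.65, interval 0.25 to 3.16, adjusted p = 0.185) and Saa2 by 1.71 (SE 1.15, interval -0.86 to 4.29, adjusted p = 0.436). Hp had -0.34 (SE 0.17, interval -0.73 to 0.04, adjusted p = 0.296). For Lcn2 the interaction was -0.18 with an interval of -1.47 to 1.11, so a loss of Lcn2 response in knockout was not shown, nor an equal response. Hp and Lcn2 thus passed the threshold in wild type and missed it in knockout, without a called difference between the genotypes. The interaction without KO fasted replicates 1 and 2, from the 1 KO fasted array left, was 2.26 for Saa1/Saa2, 2.98 for Saa2, -0.23 for Hp and 0.08 for Lcn2.

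**Figure D3:**
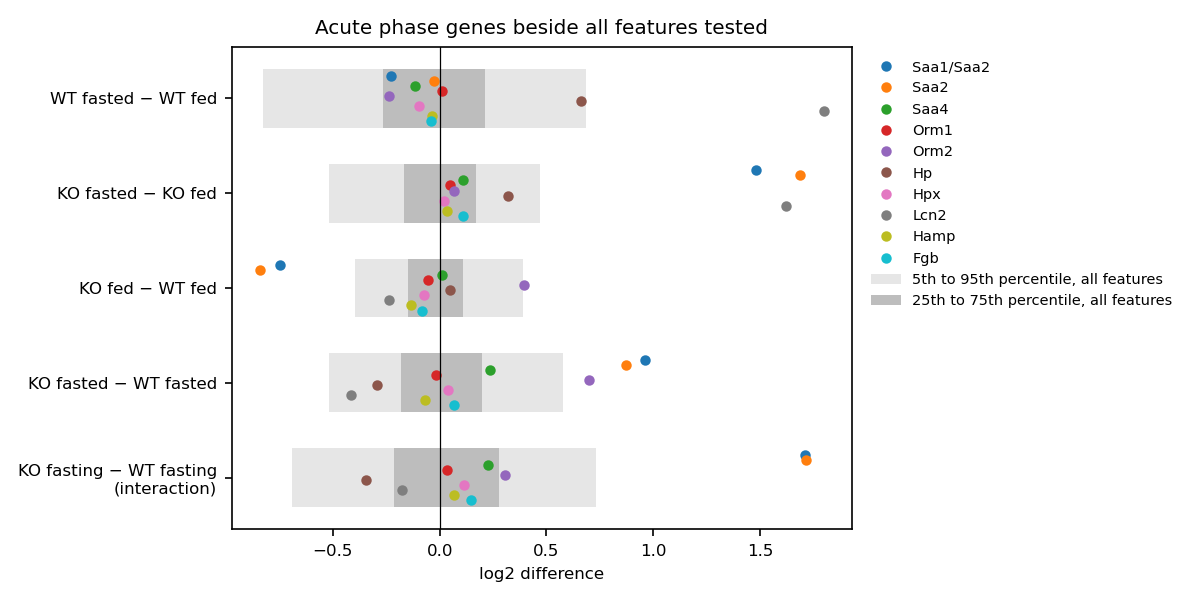
Log2 differences of the 10 acute phase probe sets (points) in the 5 comparisons, over light bars for the 5th to 95th percentile and dark bars for the interquartile range of all 13943 features. Lcn2 lies beyond the 95th percentile in both fasting comparisons. The 2 serum amyloid A probe sets do so in KO fasted against KO fed, in KO fasted against WT fasted and in the interaction. They lie below the 5th percentile in KO fed against WT fed. Orm2 lies beyond the 95th percentile in both comparisons of KO against WT.

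Other acute phase genes were described from a list of 34 symbols, 28 of them tested. In fasted against fed wild type 5 rose and 1 fell (median -0.05, against -0.02 over all features). The share called, 21.4%, equalled that of all features. Cd14, the lipopolysaccharide co-receptor, was 8.61, 7.59 and 7.91 in WT fasted and 5.20 and 5.30 in WT fed. Both fed arrays lay below the array median, and the WT fasted mean stood 5.84-fold above the fed medians. The interval of the fitted fold was 4.59 to 10.3 (adjusted p = 0.000401). Il1rn, the interleukin-1 receptor antagonist, rose by 1.91 (SE 0.29, adjusted p = 0.00219). Lrg1, a leucine-rich glycoprotein of the acute phase, rose by 0.75 (adjusted p = 0.0234) and Lbp, the lipopolysaccharide-binding protein, by 0.61 (adjusted p = 0.0274). The fifth was Orm3, and the gene that fell was Mbl2 (-0.47, adjusted p = 0.0356), both named after their values were seen. Lrg1 lost its call in 4 and Lbp in 6 of 19 alternatives.

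In fasted against fed knockout 0 of these 28 were called by limma, against 1.68% of all features, and 3 had an unadjusted p under 0.05, with Cd14 at 1.23 (adjusted p = 0.0509). Both KO fed arrays of Cd14 lay below the array median, and its KO fasted mean stood 2.03-fold above the fed medians. In fasted knockout against fasted wild type 1 of the 28 was called, Cd14, or 3.57% against 11.1% of all features. Cd14 was 6.26, 6.54 and 6.79 in KO fasted, below every WT fasted array, and lower by 1.50 on the log2 scale (SE 0.23, adjusted p = 0.00822). Without KO fasted replicates 1 and 2 its difference was -1.25 (adjusted p = 0.131). Of 11 tested proteins that fall in the acute phase, such as albumin and transthyretin, 1 was called in wild type fasting, or 9.09% against 21.4% of all features. This was Apoa4, the lipid-carrying apolipoprotein, which rose by 0.80 (adjusted p = 0.00328). In the other 4 comparisons 0 were called by limma. There an unadjusted p under 0.05 was found for 1 gene in knockout fasting and 0 in the rest.

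Genes of the pathways known to act on the members were read against the 21.4% of all features called in wild type fasting, 8.23% of all features being higher, and no test set a list against that share. Of 16 tested genes of interleukin-6, STAT3 and C/EBP signalling 4 rose and 4 fell in fasted against fed wild type (8 of 16 called, median 0.02). Cebpb, the C/EBP factor named for interleukin-6 induction, was 9.30, 9.27 and 8.92 in WT fasted and 7.24 and 7.28 in WT fed, and rose by 1.91 (SE 0.20, adjusted p = 0.000588). Cebpd, its partner in the acute phase, also rose (adjusted p = 0.00252). Both its fed arrays lay below the array median, and its WT fasted mean stood 2.08-fold above the fed medians. Il6ra, the interleukin-6 receptor, rose by 0.79 (SE 0.12, adjusted p = 0.00197), and the kinase gene Tyk2 fell by 0.82 on the log2 scale (SE 0.11, adjusted p = 0.00143). In fasted against fed knockout 1 of the 16 was called, the hepatocyte transcription factor Onecut1 (1.49, adjusted p = 0.0278), or 6.25% against 1.68% of all features. That call was lost in 8 of 19 alternatives, and the difference was 1.32 with KO fasted replicate 3 alone. In fasted knockout against fasted wild type 1 of the 16 was called, Tyk2 (0.52, adjusted p = 0.0147), or 6.25% against 11.1% of all features. It lost that call in 2 of 19 alternatives and differed by 0.49 with KO fasted replicate 3 alone.

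The knockout arrays of Cebpb, Il6ra and Il1rn showed smaller differences between fasted and fed than the wild type arrays. Cebpb was 8.91, 8.91 and 8.71 in KO fasted and 8.77 and 8.01 in KO fed, so that the fed knockout arrays already stood above the fed wild type ones, and the interaction was -1.45 (SE 0.29, adjusted p = 0.0427). Il6ra was 9.97, 10.02 and 9.97 in KO fasted and 10.28 and 10.06 in KO fed, with an interaction of -0.97 (SE 0.16, adjusted p = 0.0292). Il1rn was 7.94, 7.92 and 7.26 in KO fasted and 7.34 and 8.16 in KO fed, with an interaction of -1.96 (SE 0.41, adjusted p = 0.0447). The differences between fed knockout and fed wild type were 1.13 for Cebpb (adjusted p = 0.180), 0.71 for Il6ra (adjusted p = 0.134) and 1.82 for Il1rn (adjusted p = 0.118), none of them called. Without KO fasted replicates 1 and 2 these interactions were -1.58 for Cebpb, -0.99 for Il6ra and -2.41 for Il1rn, from the 1 KO fasted array left. The interaction call was lost in 13 of 18 alternatives for Cebpb, 9 for Il6ra and 12 for Il1rn. By list, 2 of 16 interleukin-6 genes and 1 of 28 other acute phase genes were called in the interaction. These shares were 12.5% and 3.57%, against 2.09% of all features.

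**Figure D4:**
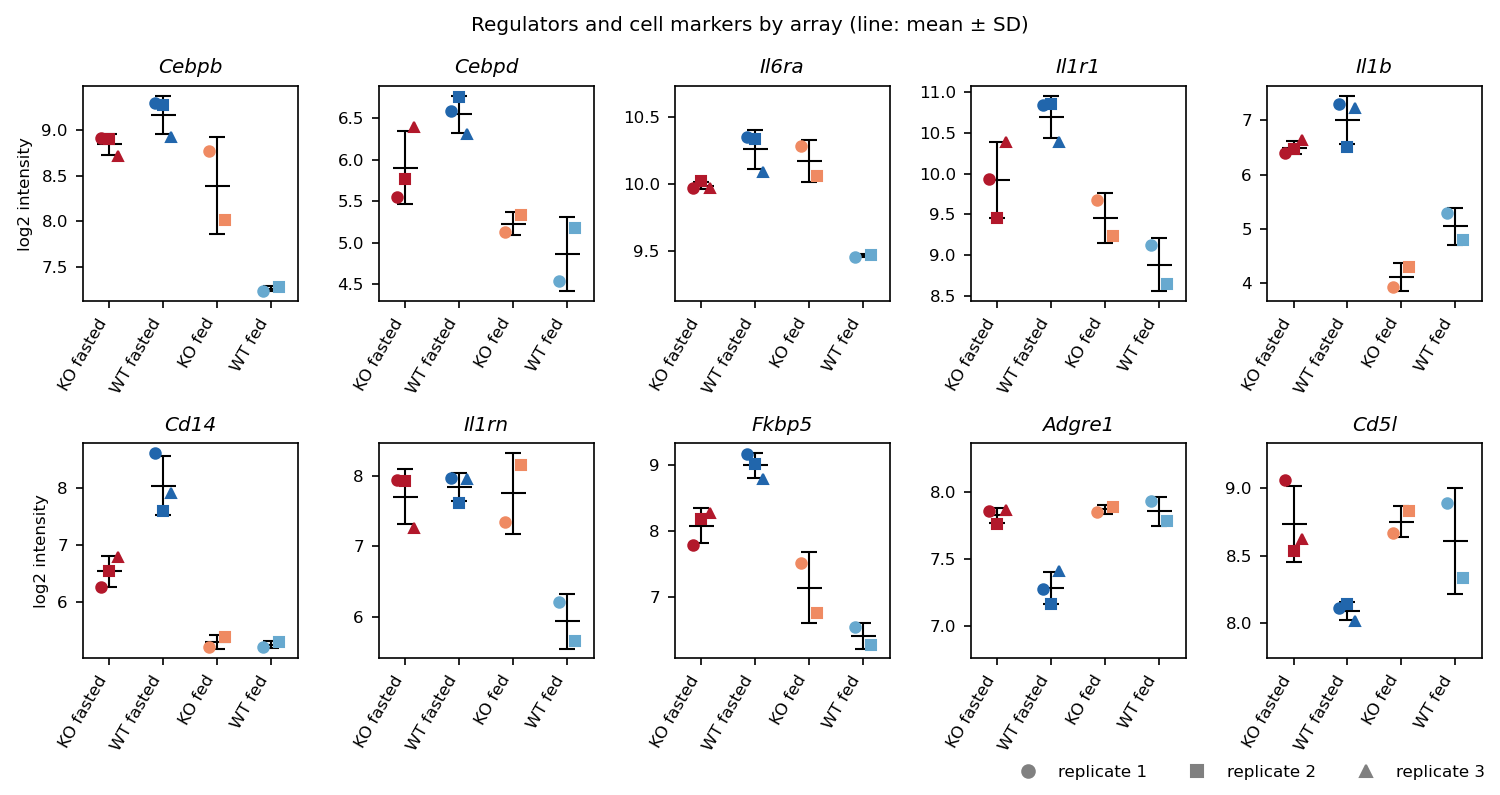
Log2 intensity of 8 regulators and immune genes and of the macrophage markers Adgre1 and Cd5l on each array, with the mean and SD of each group (n = 3 for KO fasted and WT fasted, n = 2 for KO fed and WT fed). Fed wild type arrays of Cebpb, Il6ra and Il1rn lie below all other arrays, and WT fasted arrays of Adgre1 and Cd5l lie below all others.

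Of 16 tested genes of interleukin-1, tumour necrosis factor and NF-kB signalling 7 rose and 3 fell in fasted against fed wild type (62.5% called, 43.8% higher, against 21.4% and 8.23% of all features, median 0.13). Il1r1, the interleukin-1 receptor, was 10.84, 10.85 and 10.39 in WT fasted and 9.12 and 8.65 in WT fed (1.81, SE 0.27, adjusted p = 0.00220). The adaptor gene Myd88 rose by 0.68 (adjusted p = 0.00962) and Nfkbia, the inhibitor of NF-kB, by 0.62 (adjusted p = 0.00537). Il1b rose in wild type (adjusted p = 0.00100), its WT fasted mean standing 2.87-fold above the fed array medians. The interval of the fitted fold was 2.67 to 5.71. Il1b was the 1 gene of the 16 called in knockout fasting (6.25% against 1.68% of all features), where 6 had an unadjusted p under 0.05 (median 0.22). Both its KO fed arrays lay below the array median, and its KO fasted mean stood 1.99-fold above the fed medians. Its difference, measured from those dim arrays, was 2.53 from KO fasted replicate 3 alone. In the interaction 0 of the 16 were called, against 2.09% of all features. Il1r1 was 9.93, 9.46 and 10.38 in KO fasted and 9.67 and 9.24 in KO fed, with an interaction of -1.33 (adjusted p = 0.106). In fasted knockout against fasted wild type 1 of the 16 was called, Rela (-0.43, adjusted p = 0.0232), or 6.25% against 11.1% of all features. Rela lost that call in 7 of 19 alternatives and differed by -0.32 with KO fasted replicate 3 alone. It was also lower in KO fed (9.15 and 9.13) than in WT fed (9.50 and 9.51), a comparison in which none of the 16 was called.

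Of 11 tested genes of the glucocorticoid response, 6 rose and 0 fell in fasted against fed wild type (54.5% called, all higher, against 8.23% of all features called higher, median 0.44), among them Fkbp5, a chaperone of the glucocorticoid receptor induced by it (2.59, SE 0.23, adjusted p = 0.000319), and Dusp1, a phosphatase (1.19, SE 0.17, adjusted p = 0.00167). In knockout 1 was called, Dusp1 (0.82, adjusted p = 0.0483), or 9.09% against 1.68% of all features. That Dusp1 call was lost in 14 of 19 alternatives, and its difference was 0.81 without KO fasted replicates 1 and 2. Fkbp5 was 7.79, 8.18 and 8.28 in KO fasted and 9.17, 9.02 and 8.79 in WT fasted, a difference of -0.91 (SE 0.21, adjusted p = 0.0261), and its interaction was -1.64 (SE 0.33, adjusted p = 0.0427). It was the 1 gene of the 11 called in each, that is 9.09% against 11.1% of all features between the fasted groups and 2.09% in the interaction. Without KO fasted replicates 1 and 2 these Fkbp5 values were -0.72 and -1.45, from the 1 KO fasted array left. The Fkbp5 call between the fasted groups was lost in 6 of 19 alternatives and its interaction call in 12 of 18. Some of these genes, Per1 among them, also belong to the clock.

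Genes of hepcidin control and iron handling were read beside the flat Hamp values. Of 21 tested, 3 rose and 2 fell in fasted against fed wild type (23.8% called, close to the 21.4% of all features, median 0.05) and 0 were called in knockout fasting by limma, where 4 had an unadjusted p under 0.05. Id1, a target of BMP signalling, rose (adjusted p = 0.00242), its WT fasted mean standing 1.89-fold above the fed array medians. The interval of the fitted fold was 1.81 to 3.39. Bmpr1a, a BMP receptor, rose by 0.51 (adjusted p = 0.00963) and Bmp2, a ligand made by endothelial cells, by 0.44 (adjusted p = 0.0168). Acvr1, another BMP receptor gene, fell by 0.55 on the log2 scale (adjusted p = 0.0179), and Tmprss6, a protease that lowers hepcidin and named after its values were seen, fell by 0.33 (adjusted p = 0.0464). In fasted knockout against fasted wild type 1 of the 21 was called, Erfe (-0.57, adjusted p = 0.0327), or 4.76% against 11.1% of all features. Erfe lost that call in 6 of 19 alternatives and differed by -0.89 with KO fasted replicate 3 alone. Hamp was 12.24, 12.28 and 12.18 in WT fasted and 12.35 and 12.19 in WT fed and was not called.

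Markers of other liver and blood cells were read beside these results, because Lcn2 is also a neutrophil gene and Cd14 and Il1b are macrophage genes. In whole tissue, fewer cells of a type and less RNA per cell cannot be told apart. Of 14 neutrophil markers 10, S100a8, S100a9, Ngp, Elane and Mpo among them, failed the filter and lay below the array median on all 10 arrays. The summed intensity of the 14 was 327 to 380 in KO fasted and 339 to 363 in WT fasted, against 321 to 347 in KO fed and 299 to 361 in WT fed, and its ranges overlapped between the groups. Because 10 of the 14 lay below the median throughout, this sum had little room to fall, though it had room to rise. The part of neutrophils in the Lcn2 values was not tested. For 15 macrophage markers the sum was 6296 to 7276 in KO fasted and 5228 to 5545 in WT fasted, against 5718 to 5957 in KO fed and 5420 to 6832 in WT fed. In fasted knockout against fasted wild type 4 of 14 tested macrophage markers were higher (Adgre1 0.54, Cd5l 0.65, Csf1r 0.38 and Cd68 0.36; median 0.37) and 0 lower, that is 28.6% called against 11.1% of all features. In fasted against fed wild type 2 of the 14 fell, Adgre1 by 0.57 and Csf1r by 0.35 on the log2 scale, beside the rises of Lcn2 and Cd14. The Csf1r call in that comparison was lost in 13 and the Adgre1 call in 1 of 19 alternatives. Cd68 lost its call in 15, Cd5l and Csf1r in 10 each and Adgre1 in 1 of 19 alternatives in fasted knockout against fasted wild type. None of the 4 was called there without KO fasted replicates 1 and 2, with Adgre1 at 0.58 (adjusted p = 0.116), Cd5l at 0.53 (adjusted p = 0.244), Csf1r at 0.37 (adjusted p = 0.213) and Cd68 at 0.36 (adjusted p = 0.244). The part of macrophages in the Saa1/Saa2, Orm2, Lcn2 and Cd14 values was not tested.

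The genes whose pattern over the 10 arrays was most like the 3 most variable members were found by the root mean square difference after centring each gene, among 12159 named candidates. Nearest to Lcn2 were Pdzrn3 (0.393 log2 units), Pla2g12a (0.439) and Rarres1 (0.443). Nearest to the Saa1/Saa2 probe set were AF357399 (0.473), Exosc8 (0.476) and Csf2rb2 (0.488), and nearest to Saa2 were Igkv9-120 (0.746), Zfp956 (0.784) and Naip6 (0.788). The Saa1/Saa2 and Saa2 probe sets were 0.561 apart by the same measure. Saa2 was thus nearer to the shared probe set than to its own candidates. The shared probe set, in turn, was nearer to its own candidates than to Saa2. Each candidate named ranged over less than its member, such as Igkv9-120 over 2.06 against 3.60 for Saa2.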

How the data were processed

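Per the submitters' processing notes the authors used RMA and Affymetrix Expression Console, and they deposited normalized intensity values, not log transformed, for every probe set on each array. Of the software no version is given in the sources used here, nor is a build. Some values lay far under 1, so the exact summary step is uncertain. Log2 was taken of the deposited intensity without further scaling. Of 41345 probe sets 23521 had 1 gene symbol, 1814 several and 16010 none here. Those with 1 symbol, plus the shared Saa1/Saa2 one, were kept if 2 or more arrays put them above their median, the 50th percentile, and the brightest stood for its gene, giving 13943 features. A mean per group was fitted to all 10 arrays with limma 3.58.1 in R 4.3.3 (empirical Bayes, 3.63 prior and 6 residual degrees of freedom). The p values were adjusted by Benjamini-Hochberg. The fit was also run on simulated data with independent noise and no split of the KO fasted arrays, so that run does not vouch for these arrays. The number of arrays, 2 or 3 per group, limits the precision. For a group wholly below its array medians, the fold was taken from the brighter group's mean to those medians. Such a fold carries no allowance for error. Alternatives covered centring, normalization, filter (none or the 70th percentile), probe set averaging, moderation, the replicate block, the groups fitted and arrays left out.

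The members, gene lists and clock check were chosen with earlier results of these data known. All members are named, and of each list up to 4 genes with the smallest p in a comparison, with the family members and others named after their values were seen marked as such. Genes without a probe set of their own symbol were not analysed here.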

Additional observations from a re-analysis of the deposited data

Results flagged for a closer look

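No acute phase member passed the interaction test between the 2 genotypes. Of the genes on the accompanying lists 4 did: Il1rn (-1.96), Il6ra (-0.97), Cebpb (-1.45) and Fkbp5 (-1.64), each with a smaller fasting difference in knockout than in wild type. That was 1 of 28 tested genes of the other acute phase list, 2 of 16 of the interleukin-6 list and 1 of 11 of the glucocorticoid list. No gene of the remaining lists was called, and 2.09% of all features were. These calls were lost in 12 (Il1rn), 9 (Il6ra), 13 (Cebpb) and 12 (Fkbp5) of 18 alternatives. Without KO fasted replicates 1 and 2 the values were -2.41, -0.99, -1.58 and -1.45 in that order. That fit leaves 1 KO fasted array, so a call lost there says little about these genes. Outlying single arrays were not looked for, since the groups hold 2 or 3 arrays.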

How the results depend on the processing

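In fasted against fed wild type, 2 members were called in all 9 settings other than leaving out 1 array, and 1 to 2 with 1 array left out, Lcn2 being lost without either WT fed array. In fasted knockout against fasted wild type, 1 member (Orm2) was called with centring, the stricter filter, the replicate block and the groups of the comparison alone, and 2 (Orm2 and Hp) with trend and robust moderation, against 0 as reported and 0 to 1 with 1 array left out. The other 3 comparisons gave 0 called members in every setting. The cause of these moves was not tested.

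Replicate numbers gave no sign of pairing: same-numbered arrays correlated at -0.173 to 0.106 after removing group means (1 of 13 pairs over 0.1). Arrays of different number correlated at -0.147 to 0.173. Residuals in a group of 2 arrays mirror each other, so these ranges are not independent and cannot exclude pairing. With the replicate block, the count for fasted wild type stayed 2 and that for fasted knockout against fasted wild type was 1.

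Sign changes among members were all in differences that no setting called. With each array centred on its median, Orm1 was -0.030 in wild type fasting, Saa4 -0.0070 in fed knockout against fed wild type and Orm1 0.0058 in fasted knockout against fasted wild type. With quantile normalization repeated the values were 0.018 for Saa2 and -0.026 for Orm1 in wild type fasting and 0.0052 for Orm1 in fasted knockout against fasted wild type. Hamp was 0.043 in wild type fasting with the replicate block. Without KO fasted replicates 1 and 2, knockout fasting gave -0.0066 for Saa4, -0.11 for Orm2 and -0.22 for Hamp, fasted knockout against fasted wild type gave 0.013 for Orm1, and the interaction was 0.085 for Lcn2 and -0.19 for Hamp.

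With 1 array left out, wild type fasting ranged from -0.52 to 0.067 for Saa1/Saa2, -0.50 to 0.70 for Saa2, -0.037 to 0.046 for Orm1, -0.12 to 0.050 for Hamp, -0.10 to 0.022 for Fgb and -0.10 to 0.022 for Fgg. Knockout fasting ranged from -0.023 to 0.18 for Saa4, -0.023 to 0.12 for Orm1, -0.32 to 0.45 for Orm2, -0.068 to 0.11 for Hpx and -0.044 to 0.16 for Hamp. Fed knockout against fed wild type ranged from -0.032 to 0.054 for Saa4, -0.12 to 0.016 for Orm1, -0.083 to 0.18 for Hp, -0.16 to 0.012 for Hpx and -0.69 to 0.22 for Lcn2. Fasted knockout against fasted wild type ranged from -0.053 to 0.030 for Orm1 and -0.14 to 0.060 for Hamp. The interaction ranged from -0.034 to 0.11 for Orm1, -0.080 to 0.69 for Orm2, -0.63 to 0.28 for Lcn2 and -0.017 to 0.19 for Hamp.

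The Pml difference between fed groups lost its call in 14 of 19 alternatives. With 2 arrays per fed group, leaving 1 out leaves a lone array that is assumed to vary like the others.

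Among genes that are no members, the Cebpb interaction and the Dusp1 knockout fasting calls were each lost whichever of the 10 arrays was left out. In wild type fasting, Lrg1 was lost without WT fasted replicate 1 or 3 or WT fed replicate 2, Lbp without any WT fasted array or WT fed replicate 2, Myd88 without WT fed replicate 2, and Bmpr1a and Bmp2 without either WT fed array (Bmp2 also without WT fasted replicate 2). In knockout fasting, Il1b was lost without KO fed replicate 2.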
